A study of Homo sapiens with 4 samples.

Results

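The RGS genes encode regulators of G protein signalling, and 10 of them are described here: RGS2, RGS3, RGS4, RGS5, RGS10, RGS12, RGS14, RGS16, RGS17 and RGS19. They are 10 of the 26364 gene symbols in the count table. The members were listed by family name and chosen by a rule that used the E2 value of RGS10, which was higher with estradiol (E2) than with vehicle. The E2 values of the members are therefore a description with no p-value, and where calls are counted over the members nothing is read from them. RNA was sequenced from Ishikawa cells, a human endometrial adenocarcinoma line, with the Y537S mutation of ESR1, the gene of estrogen receptor alpha. All cells were mutant, were kept in hormone-depleted medium, and were then given for 8 h either 0.1% DMSO, the vehicle, or 10 nM E2. Per the labels each treatment was given to 2 clones, and a clone is 1 line of cells, not a sample of the whole population. The 4 libraries formed a DMSO group of 2 and an E2 group of 2.

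A heterotrimeric G protein is switched on when its alpha subunit binds GTP and switched off when that GTP is hydrolysed. RGS proteins bind the active alpha subunit through a shared RGS domain and speed up hydrolysis, which shortens the signal of a G protein-coupled receptor. RGS2, RGS3, RGS4, RGS5 and RGS16 act on the Gi and Gq classes, with RGS2 known for its preference for Gq. RGS10, RGS12 and RGS14 act on the Gi class, and RGS12 and RGS14 are larger scaffolds that also bind Ras family proteins. RGS17 and RGS19, with RGS20, form the RZ branch.

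Column names add A4 or B212 to the treatment, and these tags do not occur in the sample labels. Each is taken here as 1 clone, and which of them is clone 1 cannot be told. Libraries held 71575816 to 85222856 counts, so that 1 count equalled 0.0117 to 0.0137 CPM. CPM are counts scaled to a common library total, with edgeR's TMM factors. ESR1 had 86.5 to 109.9 CPM in the 4 libraries, a gene count that cannot show the mutant allele. The epithelial markers EPCAM, CDH1, KRT8, KRT18, KRT19, CLDN4, PAX8 and ESR1 summed to 2328 to 2480 CPM in A4 and 2843 to 3135 CPM in B212. The endothelial markers PECAM1, VWF, CDH5, KDR and TEK summed to 2.34 to 3.74 CPM in A4 and 4.11 to 5.13 CPM in B212, most of it VWF at 167 to 372 counts, with PECAM1 at 0. The immune markers PTPRC, CD3E, CD68, CD14, MS4A1 and LYZ summed to 1.71 to 2.21 CPM in A4 and 2.32 to 2.57 CPM in B212, most of it CD68 at 92 to 176 counts, with CD3E and MS4A1 at 0. Nothing in the labels says that libraries came from separate cultures beyond clone and treatment. Spread between repeat cultures of 1 clone is therefore not measured. With treatment and tag both in a fit, p-values rest on how far the E2 difference varies between A4 and B212. In an E2 fit without the tag, they rest on the differences between A4 and B212. Either spread may be partly technical.

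**Figure D1:**
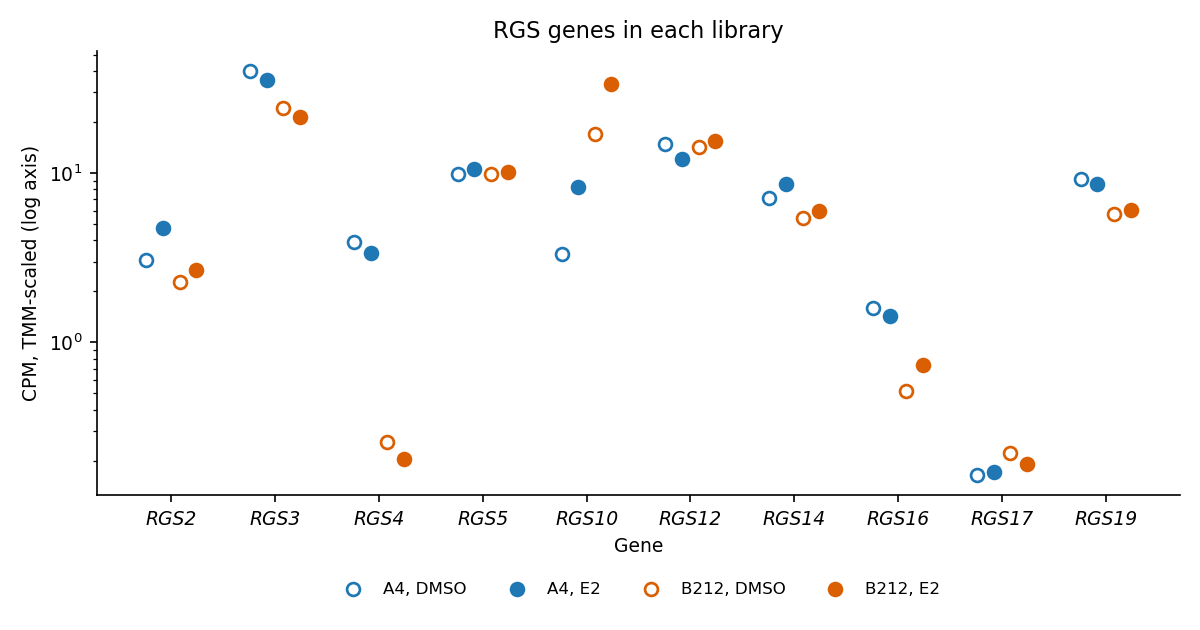
CPM of the 10 RGS genes (log axis) in each of the 4 libraries, with A4 in blue, B212 in orange, DMSO as open and E2 as filled circles. RGS10 runs from 3.32 CPM in A4 DMSO to 33.8 CPM in B212 E2, and RGS4 is below 0.3 CPM in both B212 libraries.

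All 10 members passed the count filter. Per transcript length, as CPM per kilobase of the longest coding transcript and averaged over the 4 libraries, RGS10 had the highest level, 18.3, and RGS17 the lowest, 0.0241. Between them came RGS3 (6.59), RGS19 (4.64), RGS14 (2.82), RGS12 (2.57), RGS2 (2.36), RGS5 (1.72), RGS4 (0.585) and RGS16 (0.440), on the same scale. The libraries of RGS14, RGS12 and RGS2 overlapped, with 2.24 to 3.57, 2.20 to 2.81 and 1.68 to 3.51 CPM per kilobase, so their order is within the spread. Those of RGS10 spanned 3.89 to 39.7 and overlapped those of RGS3, 4.64 to 8.73, and of RGS19, 3.60 to 5.76. In A4 DMSO RGS10, at 3.89, was below RGS3 at 8.73 and RGS19 at 5.76. The order also rests on the transcript chosen. With the median length of the coding transcripts RGS5 stood at 11.3 and RGS4 at 2.08 CPM per kilobase.

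B212 was compared with A4 by edgeR's quasi-likelihood test with treatment as a covariate, and p-values were adjusted by Benjamini-Hochberg over 15599 genes. RGS10 was higher in B212, RGS4, RGS16, RGS3, RGS2, RGS19 and RGS14 were lower, and RGS5, RGS12 and RGS17 did not pass the threshold of 0.05. That was 7 of 10 members called, where 51% of all genes tested were called. In one direction it was 1 member higher, beside 25.2% of all genes, and 6 lower, beside 25.8%. At a log2 change of 1 or more it was 1 member higher (RGS10) and 2 lower (RGS4 and RGS16), beside 7.09% and 3.96% of all genes. The median log2 fold change of the members was -0.53, and that of all genes tested was 0.0042. Both B212 libraries lay above both A4 libraries for RGS10 and RGS17, and below them for 6 members, where 34.7% and 32.8% of all genes did so. With scaling by library size alone, the 3927 genes higher and 4023 lower became 4761 and 3176, and the members stayed at 1 and 6. Each tag is 1 clone, so the comparison is between these cells only, and in bulk libraries fewer cells that express a gene and less RNA per cell cannot be told apart.

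RGS10, a short protein made of little more than the RGS domain, had 3.32 CPM in A4 DMSO, 8.22 in A4 E2, 17.1 in B212 DMSO and 33.8 in B212 E2. Every B212 library was above every A4 library. The log2 fold change was 2.18 ± 0.105 (SE), a 4.54-fold difference, with an edgeR adjusted p-value of 7.32e-13. It was 2.36 among the DMSO libraries and 2.04 among the E2 libraries. With 1 library left out, the other 3 leave no residual for a fit with treatment, so every such fit between the tags also dropped the treatment term. For RGS10 these gave 1.56 without B212 E2, 1.63 without A4 DMSO and 2.92 without A4 E2, and dropping the term alone gave 2.13.

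RGS4, which acts on Gi and Gq and is degraded from its amino-terminal cysteine like RGS5 and RGS16, had 286 (DMSO) and 277 (E2) counts in A4 and 22 and 15 counts in B212. In CPM these were 3.91, 3.38, 0.258 and 0.205, so the tags were far apart. The log2 fold change was -3.97 ± 0.227, or 15.6-fold lower in B212, with an edgeR adjusted p-value of 1.35e-11. RGS16, a relative of RGS4, had 1.60 and 1.43 CPM in A4 against 0.516 and 0.737 CPM in B212, in the order DMSO and E2. Its tags did not overlap either. The log2 fold change was -1.28 ± 0.242, or 2.43-fold lower (edgeR adjusted p = 0.000183).

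The third member with an amino-terminal cysteine, RGS5, did not pass the test. RGS5 is best known from pericytes of small vessels. It had 9.80, 10.5, 9.84 and 10.1 CPM in A4 DMSO, A4 E2, B212 DMSO and B212 E2, so its libraries were nearly level. Its log2 fold change was -0.022 ± 0.102 (edgeR adjusted p = 0.875), and 0.045 when only library size was scaled for. The pericyte markers PDGFRB, NOTCH3, KCNJ8, CSPG4 and MCAM summed to 70.2 to 90.1 CPM in A4 and 109.1 to 133.4 CPM in B212, nearly all of it NOTCH3 and MCAM. KCNJ8 went the other way, with 0.560 and 0.634 CPM in A4 and 0.375 and 0.327 CPM in B212, and PDGFRB had 13 and 7 counts against 1 and 4. RGS5 overlaps NUF2 on the opposite strand in GENCODE 29, and NUF2 had 7422 to 12443 counts per library. The overlap is one of whole gene spans, and its part in the RGS5 counts was not tested.

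RGS3, a longer protein that also binds G beta gamma, had 40.1 and 35.4 CPM in A4 and 24.3 and 21.3 CPM in B212. The tags did not overlap, and the log2 fold change of -0.73 ± 0.080 had an edgeR adjusted p-value of 2.66e-07. RGS19, also called GAIP, had 9.18 and 8.64 CPM in A4 and 5.73 and 6.03 CPM in B212. Its log2 fold change was -0.60 ± 0.113 (edgeR adjusted p = 0.000174). RGS2, the Gq regulator, had 3.06 and 4.75 CPM in A4 and 2.27 and 2.67 CPM in B212. The RGS2 tags did not overlap but came close, and the log2 fold change was -0.64 ± 0.153 (edgeR adjusted p = 0.00166). RGS14, the Ras-binding scaffold, had 7.15 and 8.63 CPM in A4 and 5.41 and 6.0 CPM in B212, a log2 fold change of -0.46 ± 0.115 (edgeR adjusted p = 0.00216).

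The calls of RGS2 and RGS14 were lost when the treatment term alone was dropped, at log2 values of -0.66 and -0.47 and edgeR adjusted p-values of 0.0740 and 0.0506. They were also lost in fits that left out a library and that term together. Without the A4 E2 library the log2 fold change of RGS2 was -0.32 and that of RGS14 -0.34, with edgeR adjusted p-values of 0.328 and 0.162, over a range of 0.00229 to 0.328 and 0.0111 to 0.162 when each library was left out. Without the B212 DMSO library they were -0.58 and -0.42, with adjusted p-values of 0.117 and 0.158. Without B212 E2 the RGS14 value was -0.54 with an adjusted p-value of 0.0516.

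RGS12, the largest scaffold, had 14.8 and 12.1 CPM in A4 and 14.2 and 15.5 CPM in B212, so the tags overlapped. Its log2 fold change was 0.15 ± 0.104 (edgeR adjusted p = 0.246), and it was -0.000925 without the A4 E2 library. RGS17, a member of the RZ branch, had 12 and 14 counts in A4 and 19 and 14 in B212. Its log2 fold change of 0.30 ± 0.457 had an edgeR adjusted p-value of 0.607, and its SE leaves room for a difference in either direction. The stromal markers COL1A1, COL1A2, COL3A1, DCN, LUM and PDGFRA summed to 94.5 to 130.8 CPM in A4 and 35.3 to 43.3 CPM in B212, with 3 of the 4 tested lower in B212 and DCN at 1 count or fewer. COL1A1 made up most of that sum. The part of these markers in the RGS values was not tested.

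**Figure D2:**
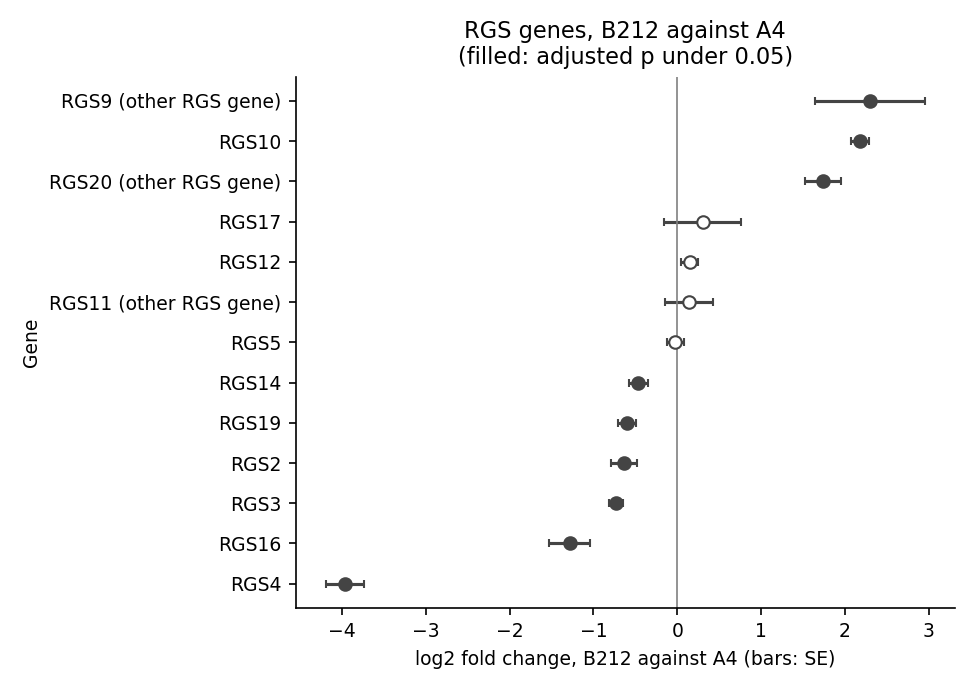
Log2 fold change of B212 against A4 for the 10 RGS genes of the list and 3 other RGS genes, with the SE as bars and filled points for an edgeR adjusted p under 0.05. RGS10 stands at 2.18 and RGS4 at -3.97, while RGS5 and RGS12 lie near 0.

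The sequences before a start site of 4 members are shown. RGS10 and RGS4 had the largest differences between the tags in each direction, RGS16 was lower like RGS4, and RGS2 had the next largest E2 value in A4 after RGS10. The windows hold the 250 bases before a RefSeq start (build GRCh38.p14, which is not the authors' hg19). They are chr10:119542720-119542969 (minus strand) for the most upstream of 2 RGS10 starts, chr1:163068621-163068870 (plus) for the most upstream of 4 RGS4 starts, chr1:182604390-182604639 (minus) for RGS16 and chr1:192808789-192809038 (plus) for RGS2. Capitals mark GGTCA, the core motif of the estrogen response element, on either strand.
RGS10: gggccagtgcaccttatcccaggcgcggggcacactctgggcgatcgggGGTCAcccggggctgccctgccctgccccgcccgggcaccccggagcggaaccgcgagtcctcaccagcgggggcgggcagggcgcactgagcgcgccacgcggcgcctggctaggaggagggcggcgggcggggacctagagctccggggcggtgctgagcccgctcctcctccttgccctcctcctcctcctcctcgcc
RGS4: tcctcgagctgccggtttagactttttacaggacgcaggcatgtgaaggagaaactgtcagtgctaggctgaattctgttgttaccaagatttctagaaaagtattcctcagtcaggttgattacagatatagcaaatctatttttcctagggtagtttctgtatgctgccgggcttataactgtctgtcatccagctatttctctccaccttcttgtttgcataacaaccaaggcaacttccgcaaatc
RGS16: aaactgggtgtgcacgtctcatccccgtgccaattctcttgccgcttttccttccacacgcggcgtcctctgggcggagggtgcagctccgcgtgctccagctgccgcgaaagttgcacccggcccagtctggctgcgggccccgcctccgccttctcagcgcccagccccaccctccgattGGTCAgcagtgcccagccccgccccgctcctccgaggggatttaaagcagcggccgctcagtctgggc
RGS2: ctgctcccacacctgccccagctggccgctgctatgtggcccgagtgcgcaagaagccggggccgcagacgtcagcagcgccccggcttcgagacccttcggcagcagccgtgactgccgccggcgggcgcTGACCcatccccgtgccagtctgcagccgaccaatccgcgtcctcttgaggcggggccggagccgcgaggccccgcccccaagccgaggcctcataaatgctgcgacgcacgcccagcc

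The RGS10 window had 77.2% GC and 26 CpG pairs and held the core motif once, starting 201 bases before the start site. The window of its other start had 46% GC, 3 CpG pairs and no match. The RGS4 window had 42.8% GC, 5 CpG pairs and no match. RGS16 (68.4% GC, 22 CpG) had a match at 68 bases and RGS2 (72.8% GC, 28 CpG) at 119 bases before the start. Over 35116 such windows of all genes, the median was 58% GC and 11 CpG pairs. Over all 24 windows of the 10 members, the core motif GGTCA was found in 8, or 33.3%, and it was found in 32.6% of all windows. The full element GGTCANNNTGACC, the cyclic AMP response element TGACGTCA and the AP-1 motif TGANTCA were each found in 0 of the 24. They were found in 0.0399%, 1.65% and 6.57% of all windows. Both strands were searched, and the core motif is part of the full element. Which start sites these cells use is not known from gene counts, and a match is a run of letters, not a bound site.

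Of 11 RGS genes outside the list, 3 passed the count filter. RGS20, of the RZ branch with RGS17 and RGS19, had 0.560 and 0.780 CPM in A4 and 2.17 and 2.29 CPM in B212. Its log2 fold change was 1.74 ± 0.214 (edgeR adjusted p = 1.21e-06), higher in B212 where RGS19 was lower. RGS9, a regulator of photoreceptors and striatal neurons, had 2 and 4 counts in A4 and 21 and 11 in B212. Its log2 fold change of 2.30 ± 0.653 had an edgeR adjusted p-value of 0.00614, but DESeq2 gave 0.151. Without B212 DMSO and the treatment term the log2 fold change of RGS9 was 1.89. RGS9 reached the minimum count of the filter only in B212, where it was high, so nothing is read from its p-values. RGS11, with 49 to 63 counts, differed by 0.14 ± 0.281 (edgeR adjusted p = 0.704), and by -0.025 without A4 E2 and -0.087 without B212 E2. RGS1, RGS13, RGS18 and RGS21, genes known mainly from blood cells and taste cells, had 0 counts in every library. A count of 0 allows up to 3 counts, or 0.0352 to 0.0410 CPM. RGS6, RGS7, RGS8 and RGS22 had at most 6 counts in a library.

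E2 was then set against DMSO within each tag, with 1 library per treatment. RGS10, whose E2 value chose it, had 243 counts with DMSO and 674 with E2 in A4, and 1457 and 2477 in B212. The E2 library was above the DMSO library in both tags, but A4 with E2 stayed below B212 with DMSO. The log2 fold change was 1.31 in A4, with a 95% interval from counting error alone of 1.09 to 1.53, and 0.99 in B212, with one of 0.89 to 1.08. Over all 4 libraries it was 1.04 ± 1.04 (SE) in the fit with no block and 1.11 ± 0.103 in a blocked fit, which compares treatments within a tag. In the fit with no block it was -0.31 without the B212 E2 library.

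RGS2 had the next largest value in A4, though not in B212. It had 224 and 390 counts in A4 and 194 and 196 in B212, in the order DMSO and E2. The log2 fold change was 0.64 in A4 (counting interval 0.40 to 0.88) and 0.23 in B212 (-0.060 to 0.53). RGS14 went the same way, with 0.27 (0.11 to 0.44) in A4 and 0.15 (-0.043 to 0.34) in B212. RGS3 was a little lower with E2 in both tags, with log2 fold changes of -0.18 (-0.25 to -0.10) and -0.19 (-0.28 to -0.093). The blocked fit gave 0.45 for RGS2, 0.21 for RGS14 and -0.18 for RGS3. When that fit was also corrected for the length and GC of transcripts, these became 0.22, 0.29 and -0.033. The sizes for RGS2 and RGS3 thus depend on a correction that the counting intervals do not cover.

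The remaining members showed small or opposed values. RGS5 had log2 fold changes of 0.10 in A4 and 0.044 in B212, and RGS4 had -0.21 and -0.33, all with counting intervals that held 0. RGS12 was at -0.28 (-0.41 to -0.16) in A4 and 0.13 (0.0081 to 0.24) in B212. RGS16, RGS17 and RGS19 also had opposite signs, and their intervals held 0 in both tags. In all, 6 of 10 members had the same sign in both tags, as did 69.9% of all genes tested. The counting interval left out 0 for 5 members in A4 and 3 in B212, beside 56.4% and 48.5% of all genes.

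**Figure D3:**
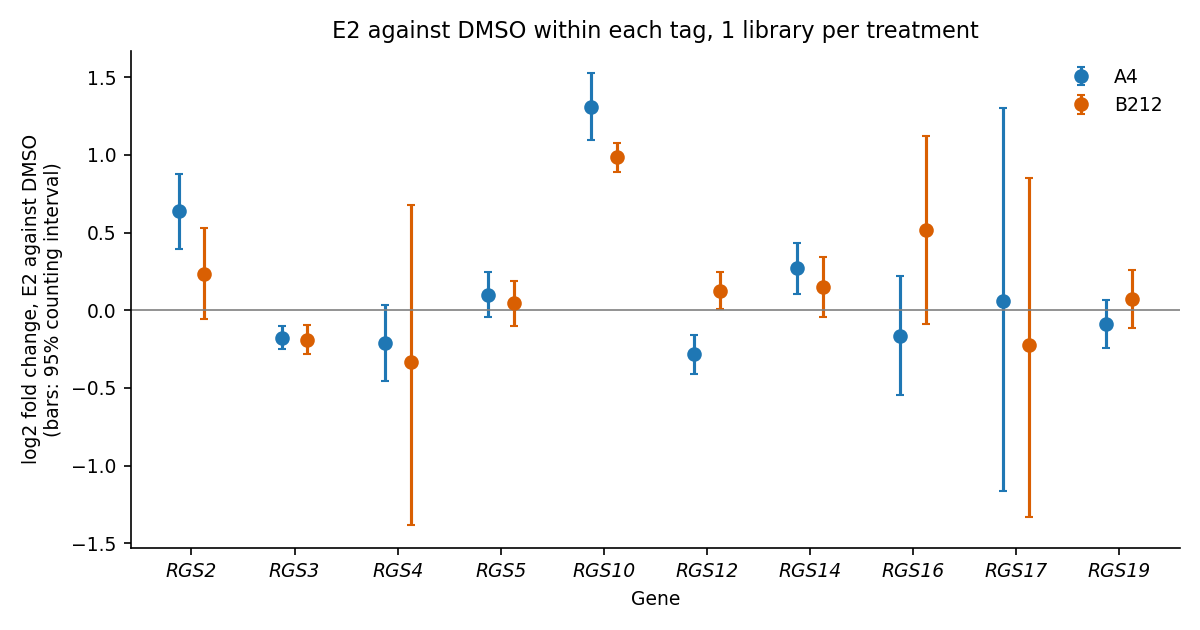
Log2 fold change of E2 against DMSO for the 10 RGS genes in A4 (blue) and B212 (orange), with bars for the 95% interval from counting error. RGS10 lies at 1.31 and 0.99, while RGS12 lies below 0 in A4 and above 0 in B212.

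With no block edgeR called 0 of 10 members for E2, where 0% of all genes were called and 150 genes had an unadjusted p under 0.05, none of them a member; DESeq2 called 1 gene, not a member. Blocking on tag, it called 1 member, RGS10, where 9.56% of all genes were called. At a log2 change of 1 or more that member was still called, beside 0.25% of all genes higher and 0.0641% lower. The rule that chose RGS10 used this contrast, so nothing is read from that count. The median log2 fold change of the members was 0.0076 in the plain fit and 0.031 in the blocked one, beside -0.0081 for all genes in either fit.

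The targets of RGS proteins are the G alpha subunits. Of 16 listed, 13 were tested and 4 were higher and 3 lower in B212, near the 25.2% and 25.8% of all genes, with a median log2 fold change of -0.11. GNA14, a Gq class subunit, had 12.9 and 15.8 CPM in A4 and 1.51 and 1.95 CPM in B212, and it was lower by -3.05 ± 0.125 (log2, SE; edgeR adjusted p = 5.95e-14). GNAI1, a Gi subunit, had 57.0 and 51.3 CPM in A4 and 110.7 and 100.4 CPM in B212, a log2 fold change of 0.96 ± 0.070 (edgeR adjusted p = 6.57e-10). GNAO1, the Go subunit of neurons, was higher by 1.37 ± 0.204 on the log2 scale (edgeR adjusted p = 1.31e-05). GNAI3 was lower by -0.27 ± 0.070 (edgeR adjusted p = 0.00371). Its call was lost when the treatment term alone was dropped (adjusted p = 0.0677), and when that term and A4 E2, B212 DMSO or B212 E2 were, at log2 values of -0.22, -0.30 and -0.26 and adjusted p-values of 0.132, 0.297 and 0.410. Once the dependence on transcript length and GC was taken out, it was -0.51.

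Of the 13 G beta and gamma subunits tested, 5 were higher and 5 lower, with a median of 0.010. GNG12 was higher by 0.97 ± 0.070 and GNG7 by 0.79 ± 0.119, and GNB4 was lower by -0.89 ± 0.075 and GNG11 by -0.93 ± 0.092, as log2 fold changes with SE. The largest of their edgeR adjusted p-values was that of GNG7, 1.46e-05. Of 12 effectors tested, 8 were higher and 2 lower, with a median of 0.29. ADCY5, an adenylyl cyclase that Gi inhibits, was higher by 2.16 ± 0.089 (edgeR adjusted p = 7.10e-14), from 13.3 and 10.2 CPM in A4 to 54.2 and 49.9 CPM in B212. ADCY1 was higher by 0.69 ± 0.081 (edgeR adjusted p = 5.90e-07). KCNJ3, a potassium channel subunit opened by G beta gamma, was lower by -2.16 ± 0.084 (edgeR adjusted p = 2.82e-14). PLCB2, with 28 and 37 counts in A4 against 4 and 3 in B212, was lower by -3.19 ± 0.522 (edgeR adjusted p = 4.00e-05). PLCB2 reached the minimum count of 10 only in A4, where it was high, so nothing is read from its p-value.

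Receptors also went both ways, with 9 of 19 tested higher and 4 lower and a median of 0.34. PTGER3, a prostaglandin E receptor that couples to Gi, was higher by 1.34 ± 0.082 (edgeR adjusted p = 3.51e-11), and LPAR1, a lysophosphatidic acid receptor, by 0.89 ± 0.109 (edgeR adjusted p = 1.18e-06). S1PR3, a receptor for sphingosine 1-phosphate, was lower by -1.34 ± 0.090 and EDNRA, an endothelin receptor, by -0.75 ± 0.129 (edgeR adjusted p = 1.88e-10 and 7.16e-05). The 25.2% higher and 25.8% lower of all genes apply to these lists too.

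Proteins with an RGS-like domain but another main role formed the next list. Of 15 tested, 5 were higher and 4 lower, beside 25.2% and 25.8% of all genes, with a median of 0.13. AXIN1, a WNT pathway scaffold, was higher by 0.37 ± 0.083 and SNX14, a sorting nexin, by 0.31 ± 0.074 (edgeR adjusted p = 0.00103 and 0.00163). ARHGEF1 was lower by -0.46 ± 0.084 and ADRBK2, a receptor kinase now named GRK3, by -0.68 ± 0.152 (edgeR adjusted p = 0.000144 and 0.000989). Dropping the treatment term alone ended the calls of AXIN1 and SNX14 (adjusted p = 0.0685 and 0.0895). With that term and a library left out, AXIN1 lost its call without A4 E2 (0.22), B212 DMSO (0.27) and B212 E2 (0.42), at adjusted p-values of 0.188, 0.333 and 0.108. SNX14 lost it without A4 DMSO (0.17), B212 DMSO (0.30) and B212 E2 (0.28), at 0.227, 0.292 and 0.339. ARHGEF1 lost it without A4 DMSO (-0.29), B212 DMSO (-0.53) and B212 E2 (-0.42), at 0.0552, 0.0552 and 0.125, and ADRBK2 without B212 E2 (-0.59), at 0.0709.

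Binding partners of RGS and G alpha proteins, and enzymes degrading RGS4, RGS5 and RGS16, each had 1 gene called, beside 51% of all genes. Of 8 partners tested it was GPSM1, a GoLoco protein, at 0.27 ± 0.099 (edgeR adjusted p = 0.0295), and the list median was 0.22. Its call was lost with the treatment term dropped (adjusted p = 0.148) and with DESeq2 (0.164). It was also lost whichever library was left out with that term, with log2 values of 0.12 to 0.38 and adjusted p-values of 0.143 to 0.731. The enzymes were METAP1, METAP2, ADO, ATE1, UBR1, UBR2 and UBR4. Of these 7 it was UBR4, a ubiquitin ligase, at -0.19 ± 0.074 (edgeR adjusted p = 0.0375), and the median was -0.057. UBR4 lost its call with library sizes alone (-0.12, adjusted p = 0.163), with DESeq2 (-0.20, 0.0973) and with the treatment term dropped (-0.19, 0.191). With that term and a library left out, it lost it without A4 E2 (-0.11), B212 DMSO (-0.26) and B212 E2 (-0.16), at adjusted p-values of 0.498, 0.390 and 0.645.

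**Figure D4:**
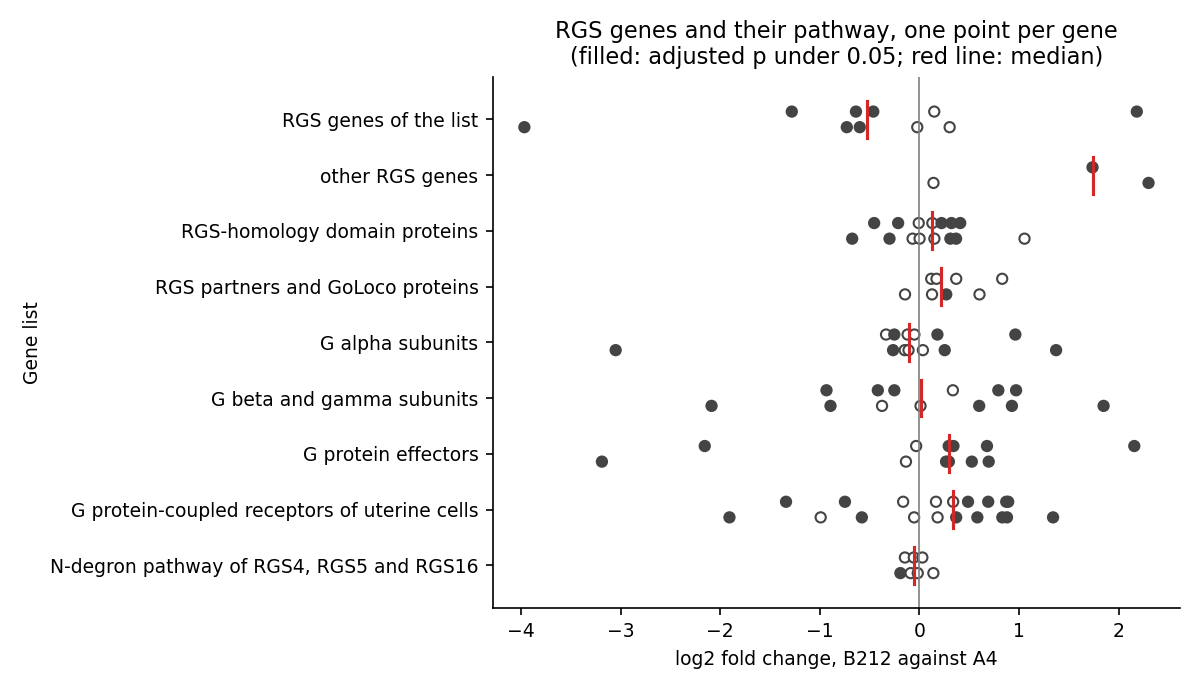
Log2 fold change of B212 against A4 for every tested gene of the RGS list and of 8 pathway lists, 1 point per gene, filled for an edgeR adjusted p under 0.05, with the median as a red line. RGS4, GNA14 and PLCB2 lie furthest to the left, and the N-degron list lies within a narrow band around 0.

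For E2 the pathway genes, which the choice of members did not use, were tested. With no block 0 genes of the 8 lists were called by edgeR, with 0 at an unadjusted p under 0.05, and DESeq2 called none of them. The fit blocked on tag called 5 of them in edgeR, where 6.13% of all genes were called higher and 3.44% lower. PTGER3 had 1236 counts with DMSO and 1738 with E2 in A4, and 3505 and 4089 in B212, and it rose by a log2 fold change of 0.39 ± 0.081 (edgeR adjusted p = 0.00634). PLCB1, the phospholipase C that Gq activates, rose by 0.30 ± 0.078 (edgeR adjusted p = 0.0197), and GNG11 by 0.34 ± 0.092 (edgeR adjusted p = 0.0237). The sizes differed between the tags, at 0.19 in A4 and 0.42 in B212 for PLCB1, and 0.55 and 0.12 for GNG11. GNAI2 fell by 0.24 ± 0.068 and GNA11, a Gq class subunit, fell by 0.23 ± 0.071 on the log2 scale (edgeR adjusted p = 0.0352 and 0.0436). Of the 5, only PTGER3 was called by DESeq2 with the block, with an adjusted p-value of 0.0214, and the other 4 had 0.0707 to 0.107. Blocked edgeR with DESeq2 size factors also called only PTGER3 (adjusted p = 0.0304), and the other 4 had 0.0526 to 0.0692. With library sizes alone, blocked edgeR called all 5, and blocked limma-voom lost only GNA11 (limma-voom adjusted p = 0.0571). With a trend on transcript length and GC removed, PTGER3 and PLCB1 were called, and GNA11 moved to -0.081. With no block, the values were -0.094 without A4 DMSO and -0.45 without B212 E2 for PTGER3, and -0.30 without A4 E2 for GNG11. No gene of the other lists was called: 0 of 3 other RGS genes, 15 RGS-domain proteins, 8 partners and 7 enzymes, with 0, 8, 0 and 0 at an unadjusted p under 0.05. G alpha subunits, beta and gamma subunits, effectors and receptors had 7, 4, 8 and 4 such genes, beside 3953 of all 15599.

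The genes on either side of the members in RefSeq order were compared between the tags too. The 10 nearest tested genes of RGS10 had log2 fold changes of -0.56 to 0.46 between the tags, with 3 higher and 1 lower, against 2.18 for RGS10. GRK5, the receptor kinase next to it, was at 0.32 ± 0.101. RGS4 and RGS5 are direct neighbours in this order, at -3.97 and -0.022, and the 10 neighbours of RGS4 ranged from -0.91 to 0.68. The neighbours of RGS16 ranged from -1.21 (CACNA1E) to 1.01 (NMNAT2), a range that reaches close to the -1.28 of RGS16. RGS14 (-0.46), RGS2 (-0.64) and RGS19 (-0.60) lay within the ranges of their neighbours, -0.73 to 0.38, -0.88 to 1.40 and -0.68 to 2.43. RGS3, at -0.73, lay below its own, -0.61 to 0.67. For E2, the neighbours of RGS10 had blocked log2 fold changes of -0.26 to 0.27, against 1.11 for RGS10. Its E2 value chose RGS10, so nothing is read from that gap.

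**Figure D5:**
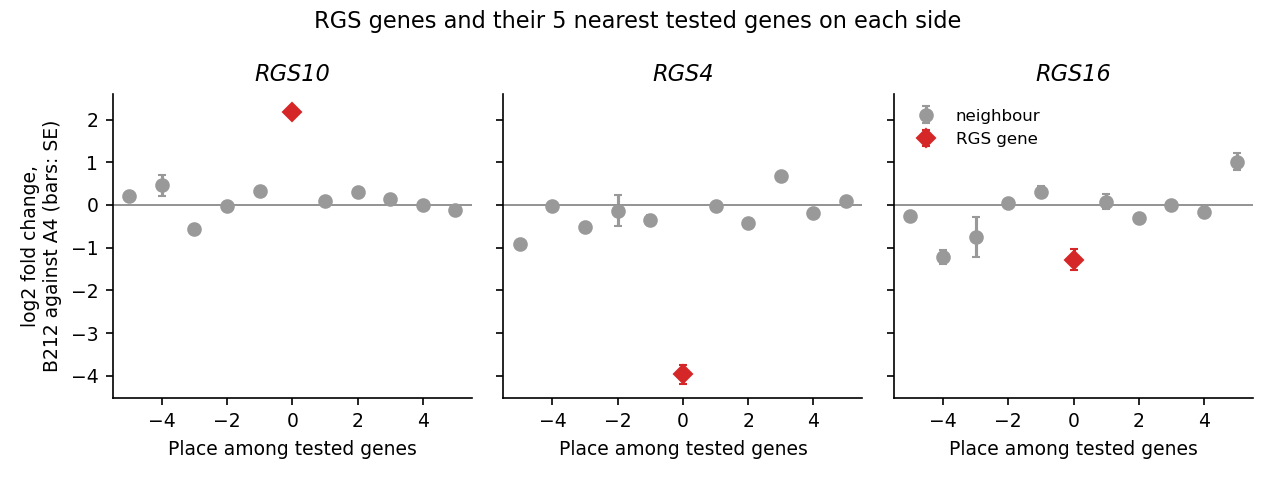
Log2 fold change of B212 against A4, with SE bars, for RGS10, RGS4 and RGS16 (red diamonds) and the 5 nearest tested genes on each side (grey), placed by gene order. RGS10 at 2.18 and RGS4 at -3.97 stand outside their neighbours, and RGS16 at -1.28 stands near the lowest of its own, at -1.21.

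By the smallest distance between centred log2 CPM values over the 4 libraries, the genes most like RGS10 among 12481 with a mean of at least 100 counts were DEGS2, HSF4 and GSAP. DEGS2, a sphingolipid desaturase, had 2.33, 3.95, 9.40 and 14.5 CPM in A4 DMSO, A4 E2, B212 DMSO and B212 E2, at a distance of 0.535. HSF4, a heat shock factor, had 0.587, 1.01, 1.97 and 3.27 CPM, at a distance of 0.663. GSAP, a gamma-secretase activating protein, had 3.06, 3.97, 12.3 and 17.8 CPM, at a distance of 0.738. All 3 had the order of libraries of RGS10, lowest in A4 DMSO and highest in B212 E2. They were picked for likeness to RGS10, so nothing is read from the shared order. Also, 4 libraries cannot set such a pattern apart from others.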

How the data were processed

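The deposited table held raw read counts per gene symbol for 4 mutant libraries, as whole numbers. HISAT2, SAMtools, featureCounts, DESeq2 and build hg19 are named, with no role or version, per the submitters' processing notes, and the kit was stranded and poly(A)-selected per the labels' protocols. The strand setting and annotation are not given in the sources used here, so overlapping genes are uncertain. A further 4 columns fitted none of the samples and were left out. The members and gene lists were chosen with earlier results of these data known, and the lists come from general knowledge.

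Genes were kept by filterByExpr of edgeR 4.0.16 (minimum count 10), which left 15599. The main fits used TMM scaling and the quasi-likelihood test, with SEs derived from the F statistic. E2 had no block, and treatment was a covariate between the tags. Columns were placed by treatment, and the tag in the column name paired them: same-tag libraries of a clone deviated together (Pearson r = 0.871 across genes, a single independent value), so a blocked fit stands beside the plain one. Beyond the members, the other RGS genes that passed the filter were named, with the 2 genes of smallest p in each direction past the threshold in each list. CPM per kilobase used GENCODE 29 lengths, found with GC content for 93.5% of tested genes. Counting intervals are exact binomial at 95% and cover counting error only. The scripts were tested on simulated data. Also used were limma 3.58.1, DESeq2 1.42.0, mgcv 1.9.3, R 4.3.3, Python 3.11.15 and matplotlib 3.10.9. Alternatives were other scalings, filters and tools, the block, a length and GC trend, and leaving out libraries.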

Additional observations from a re-analysis of the deposited data

Results flagged for a closer look

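The sign of the E2 log2 fold change differed between A4 and B212 for 4 members of the list and 2 other RGS genes. With 1 library per tag and treatment, none of these differences was tested. Each is given as B212 minus A4 with its interval from counting error. RGS12 was at -0.28 in A4 against 0.13 in B212, which differ by 0.41 (0.24 to 0.58). RGS16 was at -0.16 against 0.51, which differ by 0.68 (-0.0044 to 1.36). For RGS19 the values were -0.086 and 0.074, and the difference was 0.16 (-0.080 to 0.40). For RGS17 they were 0.059 and -0.22, and the difference was -0.28 (-1.77 to 1.21). RGS11, at -0.33 against 0.44, differed by 0.77 (0.0083 to 1.54). RGS9, at 0.84 against -0.71, differed by -1.55 (-4.22 to 1.12), from 2 to 21 counts per library.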

How the results depend on the processing

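Fits with the block by limma-voom or with library sizes alone were chosen after seeing the data; the other alternatives were planned. For the tags, the 7 members called (1 higher, 6 lower) held under both other scalings, both filters, DESeq2, limma-voom and the removal of a length and GC trend. With no treatment term 5 were called and 4456 genes (2297 higher, 2159 lower) against 7950, and RGS2 and RGS14 had edgeR adjusted p-values of 0.0740 and 0.0506. A log2 fold change of at least 1 left 3 members (RGS10, RGS16 and RGS4). With library sizes alone, the 3927 genes higher and 4023 lower in B212 became 4761 and 3176, and RGS5 reversed to 0.045. Leaving out a library together with the treatment term, which 3 libraries cannot carry, gave 5 to 7 members and 3094 to 5639 genes, with log2 values of -0.072 to 0.019 (RGS5), -0.000925 to 0.29 (RGS12) and -0.087 to 0.33 (RGS11); these fits leave a tag with 1 library, assumed to vary like the other tag.

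For E2, the replicate block changed the 0 genes with no block to 1492 (956 higher, 536 lower). With the replicate block and DESeq2 it was 533, DESeq2 size factors 717, the trend removed 825, limma-voom 1138, and library sizes alone 1686 (911 and 775). Each of these blocked fits called 1 member, RGS10, at log2 values of 0.87 to 1.12. Nothing is read from those calls either, since RGS10 was chosen by its E2 value. DESeq2 with no block called 1 gene. With no block, RGS19 reversed to 0.016 under limma-voom, and RGS12 to 0.081 with the block and the trend removed; the cause was not tested. Without single libraries, which unbalances the tags, the fit with no block gave log2 values of -0.013 to 0.83 (RGS2), -0.61 to 0.23 (RGS3), -3.35 to 2.79 (RGS4), -0.31 to 2.65 (RGS10), -0.26 to 0.080 (RGS12), -0.083 to 0.46 (RGS14), -0.56 to 1.07 (RGS16), -0.30 to 0.14 (RGS17) and -0.32 to 0.36 (RGS19). For other genes the ranges were -1.48 to 1.78 (RGS9), -0.21 to 0.30 (RGS11), -0.81 to 1.44 (RGS20), -0.45 to 1.18 (PTGER3) and -0.30 to 0.87 (GNG11). Depth limits RGS17, RGS9 and, in B212, RGS4, with 2 to 22 counts per library.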
